A study of Homo sapiens with 6 samples.

Results

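The genes described here carry the names of translation initiation factors, other than those of the cap-binding complex eIF4F. They were chosen by name, as protein-coding genes whose symbol begins with EIF1, EIF2, EIF3, EIF5 or EIF6, leaving out the EIF2AK kinases. The rule finds 36 genes in the annotation (GENCODE release 44, GRCh38). EIF5A and EIF3K were not analysed here, which leaves 34 genes of the 34486 with a matched transcript, on 17 chromosomes. Expression was measured by total RNA sequencing of wild-type MCF10A cells, an immortalised, non-tumorigenic human breast epithelial line. Of the 6 libraries, 3 came from cells given an siRNA against PDCD4 (siPDCD4) and 3 from cells given a control siRNA (siCT). Both groups were transfected with 10 nM siRNA for 48 h and differ only in the siRNA. A medium change, recorded as 6 h, was shared by both groups. In the cytoplasm PDCD4 inhibits eIF4A, the RNA helicase of eIF4F. The authors report that PDCD4 is mainly nuclear in MCF10A cells, and eIF4A was not among the protein partners they identified there. The comparison asks whether PDCD4 knockdown changes the mRNA levels of the factors that work beside eIF4F.

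Initiation begins when eIF2, bound to GTP, brings the initiator tRNA to the small ribosomal subunit. eIF1, eIF1A and eIF5 join it there, and eIF3 is the large scaffold that links this complex to the mRNA. After the start codon is found, eIF5 promotes GTP hydrolysis on eIF2, eIF5B brings in the large subunit, and eIF2B reloads eIF2 with GTP. eIF2B is the target of the integrated stress response, in which kinases phosphorylate eIF2 and turn it into an inhibitor of eIF2B. eIF6 keeps the large subunit from joining too early, and eIF5A, despite its name, acts mostly in elongation.

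PDCD4 was lower in each siPDCD4 library, and the cells carried epithelial markers. The PDCD4 level, in CPM (read counts scaled to a common library size and corrected for transcript length), was 61.1 to 90.5 in siCT and 7.44 to 9.16 in siPDCD4. Its log2 fold change was -3.25 ± 0.17 (SE, adjusted p = 2.15e-05, edgeR). All 9 epithelial markers, among them the keratin KRT5, the basal transcription factor TP63 and the receptor EGFR, stood at 10 TPM or more in every library, and their summed level ranged from 2637 to 2999 TPM in siCT and from 2367 to 2880 TPM in siPDCD4. TP63 and KRT6A had the smallest p of this list, with log2 fold changes of 0.36 ± 0.09 and -0.30 ± 0.09 and adjusted p-values of 0.18 and 0.32. With ITGA6, at 0.19 ± 0.08 (adjusted p = 0.568, edgeR), 3 of the 9 had an unadjusted p under 0.05. In these 3 the groups did not overlap. Of all genes tested, 8.62% had such a p, and in 13.9% the groups did not overlap. The 6 markers of leucocytes, endothelium, fibroblasts and adipocytes summed to between 0.35 and 0.458 TPM in siCT and between 0.495 and 0.951 TPM in siPDCD4, with COL3A1 listed at 0 in 5 libraries. Only 1 of them, the endothelial PECAM1, passed the filter on low counts. Its log2 fold change was 1.28 ± 0.45 (adjusted p = 0.405, edgeR), and the groups did not overlap. The 3 markers of hormone-responsive luminal cells summed to between 1.33 and 2.54 TPM in siCT and between 2.94 and 3.28 TPM in siPDCD4, with PGR listed at 0 throughout. FOXA1 made up most of that sum, at 2.34, 2.44 and 1.22 TPM in siCT and 3.02, 2.84 and 3.25 TPM in siPDCD4. Its log2 fold change was 0.57 ± 0.24 (adjusted p = 0.521, edgeR), and the groups did not overlap. The part of these low levels in any result was not tested. Total estimated counts ranged from 13410441, in siCT replicate 3, to 21828931, in siCT replicate 1. These 2 libraries also had the lowest and highest share of counts in protein-coding genes, 76.2% and 86.4%. The labels do not say whether replicates were separate cultures, so the p-values measure only the spread between these libraries. In cultured cells measured in bulk, less RNA per cell and fewer cells that express a gene cannot be told apart.

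None of the 34 initiation factor genes passed the threshold of a 5% FDR (false discovery rate) in edgeR, and 1, EIF5B, had an unadjusted p under 0.05. DESeq2 and limma-voom also called 0 of them, with 1 and 2 at an unadjusted p under 0.05. Over all 13047 genes tested, 0.429% passed this FDR and 8.62% had an unadjusted p under 0.05. All 34 passed the filter on low counts. The log2 fold change was above 0 in 15 genes and below 0 in 19 (44.1% above 0, against 48.7% of all genes), and the median was -0.04, against -0.01 over all genes. The changes were small. In 22 of the 34 the log2 fold change was under 0.1 in size (64.7%, against 44.9% of all genes), and the median size was 0.07, against 0.12. The median SE was also lower, at 0.10 against 0.14 over all genes. For the 30 genes with at least 10 CPM in siCT, every 95% interval lay between -0.46 and 0.49, so a change of 1.41-fold or more lay outside each gene's own interval. For EIF3CL, EIF1AY, EIF5AL1 and EIF2S3B, all under 10 CPM on average in siCT, the intervals were wider and larger changes cannot be told from none at this depth.

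**Figure D1:**
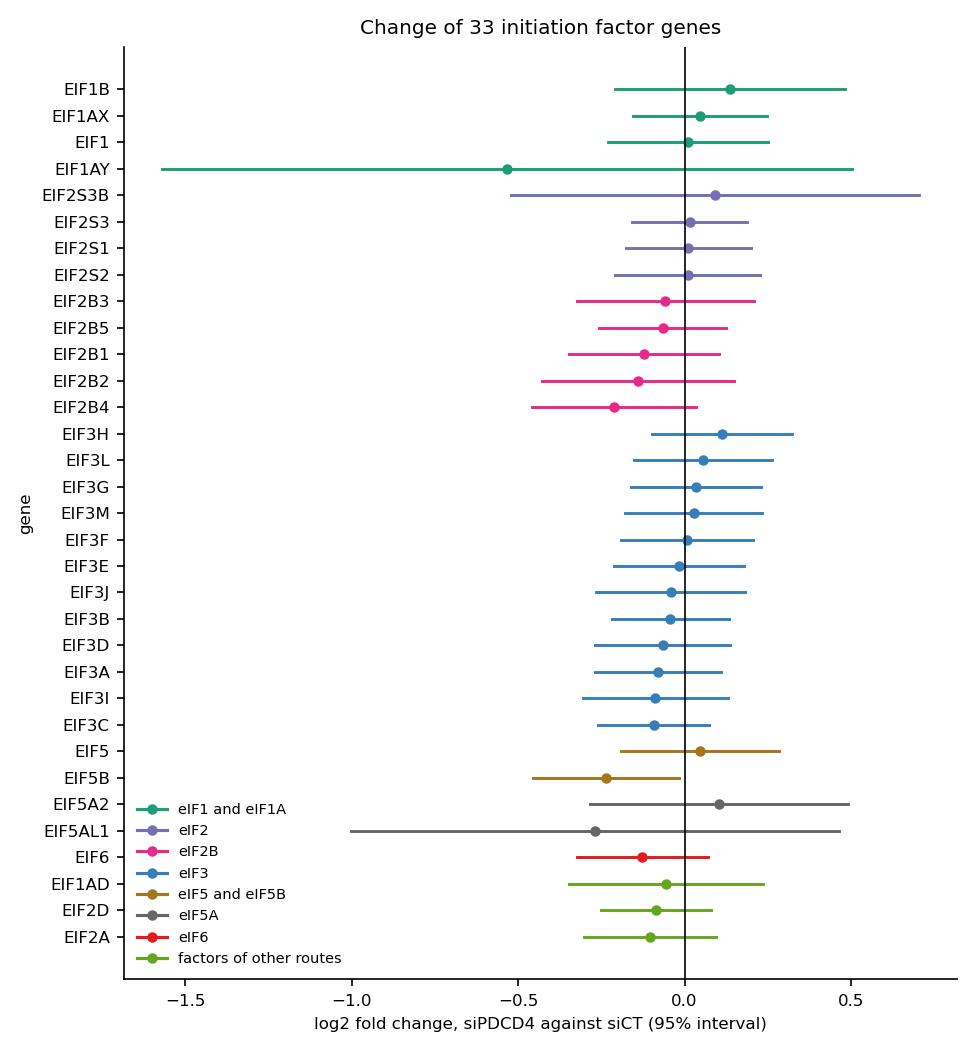
Change from siCT to siPDCD4 on the log2 scale (x axis) of 33 initiation factor genes (y axis), coloured by role. Points are the edgeR estimates and bars the 95% intervals (n = 3 libraries per group). EIF5B has the 1 interval that does not reach 0, all 5 eIF2B subunits lie below 0, and EIF3CL, at 3.20, is not drawn.

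The factors of the initiator tRNA complex differed little. EIF2S3, the GTP-binding gamma subunit of eIF2 (chromosome X, 24054946 to 24078810), was the most abundant eIF2 subunit and stood at 607, 560 and 549 CPM in siCT and 578, 572 and 584 CPM in siPDCD4. The siPDCD4 values lie within the siCT range. Its log2 fold change was 0.01 ± 0.08, the 95% interval ran from -0.16 to 0.19, and the adjusted p was 0.988. EIF2S1, the alpha subunit that the stress kinases phosphorylate, and EIF2S2, the beta subunit, had log2 fold changes of 0.01 ± 0.08 and 0.01 ± 0.10. All 4 eIF2 genes were above 0 by at most 0.09, and EIF2S1 was at -0.03 when only transcripts of the protein-coding class were summed. EIF1AX, which encodes eIF1A, was at 295, 294 and 245 CPM in siCT and 296, 289 and 276 CPM in siPDCD4, and its log2 fold change was 0.05 ± 0.09 (adjusted p = 0.972). Its lowest value came from siCT replicate 3. The start-codon fidelity factor EIF1 and its paralogue EIF1B had log2 fold changes of 0.01 ± 0.11 and 0.14 ± 0.16. The EIF1 value sums transcripts of all classes, and it reached 0.17 in an alternative with all 6 libraries. EIF1AY had the smallest p of this role, with a log2 fold change of -0.53 ± 0.47 (adjusted p = 0.884). All of its counts were assigned to EIF1AY-203, a transcript without a defined coding sequence, and its level in single libraries is not given because the gene is Y-linked.

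All 5 subunits of eIF2B, the exchange factor for eIF2, were below 0, with a median of -0.12 and none past the FDR of 5%. EIF2B4, the delta subunit (chromosome 2, 27364352 to 27370338), had the smallest p. It stood at 32.5, 29.4 and 29.98 CPM in siCT and 28.1, 27.3 and 23.9 CPM in siPDCD4. Each siPDCD4 library was below each siCT library, as was the case for 7.14% of all genes tested. The log2 fold change was -0.21 ± 0.11 (adjusted p = 0.696), with a 95% interval from -0.46 to 0.04. EIF2B5, the catalytic epsilon subunit and the most abundant of the 5, stood at 93.5, 89.6 and 81.4 CPM in siCT and 86.7, 83.3 and 83.0 CPM in siPDCD4, where the groups overlapped, and its log2 fold change was -0.07 ± 0.09 (adjusted p = 0.953). EIF2B1, EIF2B2 and EIF2B3 had log2 fold changes of -0.12 ± 0.10, -0.14 ± 0.13 and -0.06 ± 0.12. With transcripts of the protein-coding class alone EIF2B5 was at 0.02, and EIF2B3 was at 0.02 both without siCT replicate 1 and without siPDCD4 replicate 3, so the shared sign did not hold in these fits.

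Among the 13 eIF3 genes, 6 were above 0 and 7 below, and the median was -0.02. EIF3E had the highest level of all the initiation factor genes studied. It stood at 842, 793 and 708 CPM in siCT and 780, 749 and 787 CPM in siPDCD4. All 3 siPDCD4 values fell inside the siCT range, with a log2 fold change of -0.02 ± 0.09 (adjusted p = 0.988). Apart from EIF3CL, the eIF3 genes lay between -0.09, for the core subunit EIF3C, and 0.11, for EIF3H, with adjusted p-values of 0.872 and 0.877. EIF3L, at 0.06 ± 0.09 in this fit, reached 0.24 in an alternative with all 6 libraries. EIF3A, the largest subunit and part of the eIF3 core with EIF3B and EIF3C, was at -0.08 ± 0.09, and EIF3B at -0.04 ± 0.08. EIF3D, which has a cap-binding role of its own on some mRNAs, was at -0.07 ± 0.09. EIF3J, the loosely bound subunit, was at -0.04 ± 0.10.

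EIF3CL, a copy of EIF3C, was the exception in size. EIF3C (chromosome 16, 28688558 to 28735727, forward strand) and EIF3CL (chromosome 16, 28379579 to 28403841, reverse strand) have coding sequences of 2739 and 2742 bases in GENCODE. Their alignment had 0 mismatched bases and 1 difference, a run of 3 extra bases in EIF3CL. Over the coding sequence of EIF3CL, 97.64% of all 75-base words, the length of a read, also occur in EIF3C. The stretch around the difference is shown because it is all that tells the coding parts of the copies apart. The extra bases are in capitals, and since they sit in a repeat their exact place in the alignment is arbitrary.
EIF3C-201, coding bases 858 to 884: caagcgcctggatgaggaggaggagga
EIF3CL-201, the same stretch: caagcgcctggatGAGgaggaggaggagga

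EIF3CL stood at 0, 2.31 and 0 CPM in siCT and at 3.60, 7.06 and 11.2 CPM in siPDCD4. The groups did not overlap, as in 6.81% of all genes with siPDCD4 above, and EIF3CL was the 1 member above. The log2 fold change was 3.20 ± 1.34 (95% interval -0.25 to 6.64, adjusted p = 0.614 in edgeR). Without siCT replicate 2, the 1 siCT library with reads on it, siCT is at 0 counts and the adjusted p was 0.0309. EIF3CL passed the filter on low counts through its siPDCD4 libraries, where it is high. These values rest on few reads, at 0, 39.5 and 0 estimated counts in siCT and 64.6, 102 and 182 in siPDCD4, beside 4639 to 8521 for EIF3C in the same libraries. EIF3C itself stood at 430, 407 and 410 CPM in siCT and 382, 403 and 384 CPM in siPDCD4, and these groups did not overlap in the other direction. The log2 fold change of EIF3C was -0.09 ± 0.08 (adjusted p = 0.872). With the copies summed the level was 431, 410 and 412 CPM in siCT and 385, 409 and 392 CPM in siPDCD4, and the log2 fold change was -0.08 ± 0.08 (adjusted p = 0.9), and siCT replicate 2 lay only just above siPDCD4 replicate 2.

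The reads on EIF3CL in siPDCD4 were all assigned to EIF3CL-202, a transcript of 3053 bases, whereas the 39.5 counts of siCT replicate 2 were all on EIF3CL-201, of 2913 bases. EIF3CL-202 stood at 0 in all 3 siCT libraries and at 3.67, 7.16 and 11.3 CPM in siPDCD4, with an adjusted p of 0.316. Its counterpart EIF3C-202 went the other way, at 33.04, 30.8 and 21.5 CPM in siCT and 20.6, 17.7 and 16.3 CPM in siPDCD4, and its log2 fold change was -0.64 ± 0.19 (adjusted p = 1). Of the 75-base words of EIF3CL-202, 95.77% occur in EIF3C-202. Summed, these 2 transcripts stood at 33.04, 30.8 and 21.5 CPM in siCT and 24.3, 24.9 and 27.6 CPM in siPDCD4, and the groups overlapped. No fold is given for EIF3CL-202 against 0, because the tables split reads between near-identical sequences by estimate. How far that split shaped either value was not tested.

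**Figure D2:**
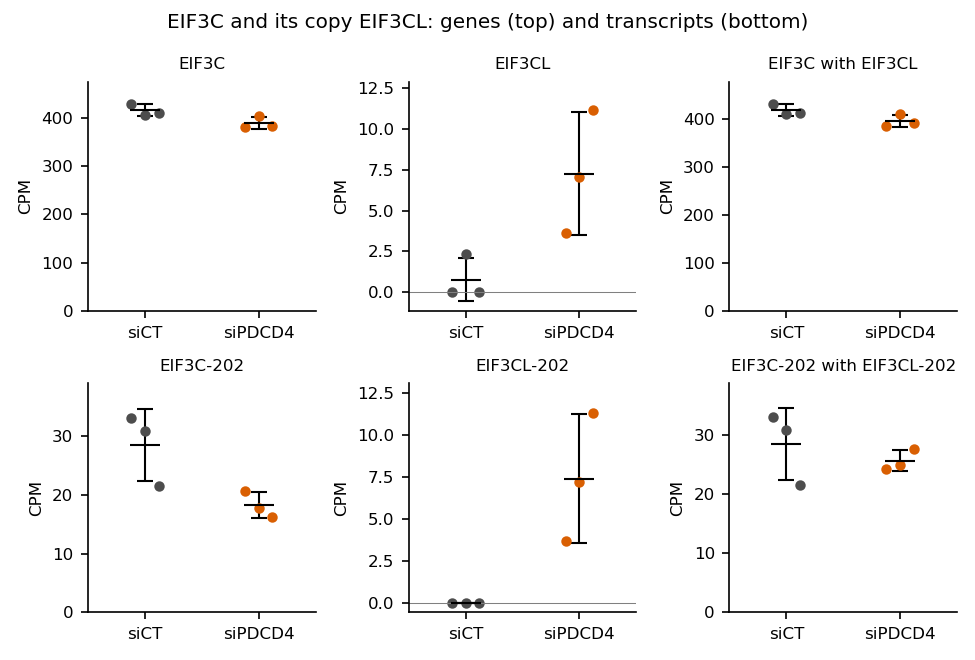
Level in CPM (y axes) of EIF3C, its copy EIF3CL and their sum (top) and of the transcripts EIF3C-202, EIF3CL-202 and their sum (bottom) in each library. Points are libraries, and black bars the mean and SD (n = 3 per group). EIF3CL-202 rests at 0 in siCT and lies between 3.67 and 11.3 CPM in siPDCD4, EIF3C-202 is lower in siPDCD4, and the sum of both transcripts overlaps between the groups.

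A second pair of copies shares less of its coding sequence. EIF2S3B, on chromosome 12, is a copy of EIF2S3. The coding sequence of EIF2S3B-202 has an identity of 98.23% with that of EIF2S3-201, with 25 mismatched bases, and 30.48% of its 75-base words occur there. All EIF2S3B counts were assigned to EIF2S3B-201, which was not compared. The stretch below is shown as an example of a mismatch, in capitals.
EIF2S3-201, coding bases 114 to 143: acaagccacaattaaCataggtacaattgg
EIF2S3B-202, the same stretch: acaagccacaattaaTataggtacaattgg

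EIF2S3B stood at 1.75, 2.17 and 1.94 CPM in siCT and at 2.13, 2.24 and 1.86 CPM in siPDCD4. The groups overlapped, and the log2 fold change was 0.09 ± 0.28 (adjusted p = 0.984).

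Of the factors that act when the ribosomal subunits join, EIF5B had the smallest p of all 34 genes. EIF5B encodes the GTPase of subunit joining (chromosome 2, 99337371 to 99401326). It stood at 73.5, 70.0 and 63.1 CPM in siCT and 57.1, 63.6 and 54.9 CPM in siPDCD4. The groups met at one point, where siPDCD4 replicate 2 lay just above siCT replicate 3. The log2 fold change was -0.24 ± 0.10 (unadjusted p = 0.0369, adjusted p = 0.521, edgeR). This is a difference of -15.1% in level, and the 95% interval ran from -0.46 to -0.02 on the log2 scale. Under every alternative it stayed below 0, between -0.30 and -0.18. EIF5, the GTPase activator of eIF2, stood at 293, 278 and 218 CPM in siCT and 269, 279 and 267 CPM in siPDCD4, with a log2 fold change of 0.05 ± 0.11 (adjusted p = 0.976). Here siCT replicate 3 was well below the other 5 libraries.

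EIF6 stood at 160, 153 and 140 CPM in siCT and 146, 142 and 127 CPM in siPDCD4, overlapping groups with a log2 fold change of -0.13 ± 0.09 (adjusted p = 0.827). EIF2A, which can bring the initiator tRNA by another route than eIF2, stood at 173, 160 and 143 CPM in siCT and 149, 141 and 152 CPM in siPDCD4, with a log2 fold change of -0.10 ± 0.09 (adjusted p = 0.879). EIF2D, known for tRNA delivery and subunit recycling without eIF2, was at 128 to 130 CPM in siCT and 120 to 124 CPM in siPDCD4. Its groups were narrow and did not overlap, yet the difference was small, at -0.09 ± 0.07 (adjusted p = 0.884). EIF5A2, an isoform of the elongation factor eIF5A, stood at 16.1, 20.5 and 12.96 CPM in siCT and 18.5, 19.4 and 15.5 CPM in siPDCD4, with a log2 fold change of 0.10 ± 0.18 (adjusted p = 0.965). EIF5AL1 is a further gene of that family, and its level was near 1 CPM, at 1.11, 1.20 and 1.052 CPM in siCT and 1.01, 0.981 and 0.806 CPM in siPDCD4. Its log2 fold change of -0.27 ± 0.33 (adjusted p = 0.943) came with groups that did not overlap. In all, the groups did not overlap in 5 of the 34 genes, 4 of them lower in siPDCD4 (EIF2B4, EIF3C, EIF5AL1 and EIF2D) and 1 higher, against 13.9% of all genes tested. EIF3C and EIF2D were added to the genes described by library after their values had been seen.

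**Figure D3:**
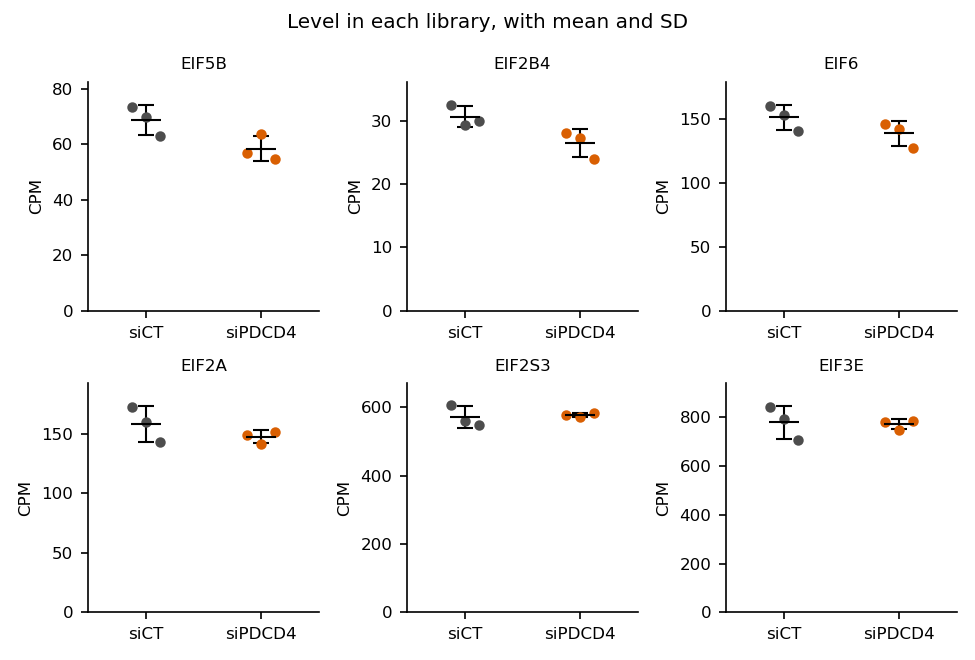
Level in CPM (y axes, from 0) of EIF5B, EIF2B4, EIF6, EIF2A, EIF2S3 and EIF3E in each siCT and siPDCD4 library. Points are libraries, and black bars the mean and SD (n = 3 per group). EIF2B4 is the only 1 of these 6 in which all siPDCD4 points lie below all siCT points, between 23.9 and 28.1 CPM against 29.4 and 32.5 CPM.

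The siCT libraries differed among themselves by more than the groups did, with medians over 32 of the genes between -0.09 and 0.12 on the log2 scale around each gene's mean, against a median difference of -0.04 between the groups. Library siCT replicate 1 was the highest of the 6 in 24 of the 34 genes (70.6%, against 22.5% of all genes), and siCT replicate 3 was the lowest in 17 (50%, against 26.5%). Leaving out siCT replicate 3, the library with the lowest depth and the lowest protein-coding share, put 5 genes above 0 and 29 below, with a median of -0.09 and 0 past the FDR of 5%. In that fit 47.8% of all genes were above 0, EIF5B was at -0.29 ± 0.09 (adjusted p = 0.289), and the genes below 0 were 3 of the 4 for eIF2, all 5 for eIF2B and 10 of the 13 for eIF3. Leaving out siCT replicate 1 gave 21 above 0 and 12 below. The direction in which the initiation factors moved on balance thus depended on which siCT library was used. The part of depth or of the protein-coding share in this was not tested.

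**Figure D4:**
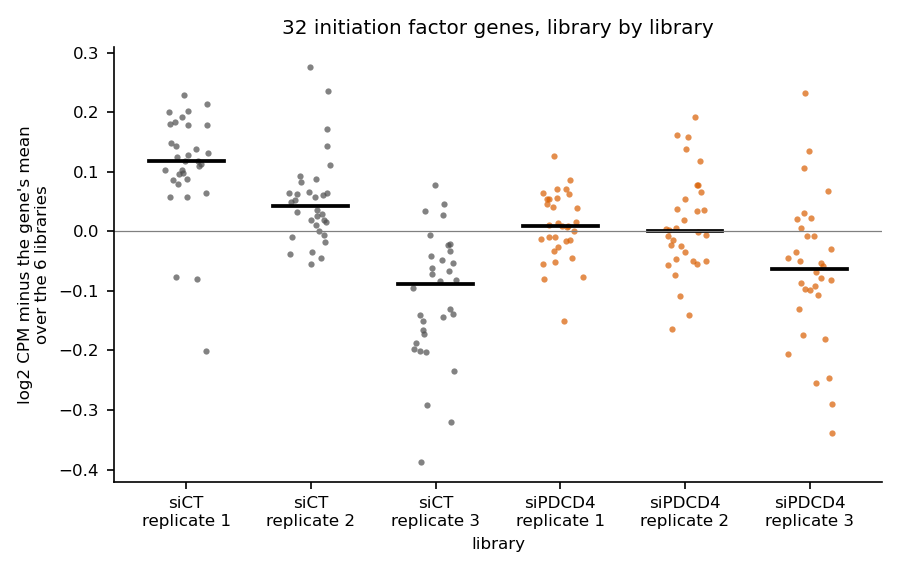
Log2 CPM of 32 initiation factor genes minus each gene's own mean over the 6 libraries (y axis), by library (x axis). Points are genes and black lines medians. The median is 0.119 in siCT replicate 1 and -0.089 in siCT replicate 3, and the siPDCD4 medians, from -0.063 to 0.009, lie between them (EIF1AY and EIF3CL are not drawn).

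Levels were compared between genes in TPM, the abundance unit of Salmon, which corrects for length. The genes spanned a wide range, with 14 above 100 TPM and 5 below 10 TPM on average over the 6 libraries. EIF3E led at 536 TPM, followed by EIF3M at 331, EIF3L at 281, EIF3I at 226 and EIF3C at 220 TPM. This order sums transcripts of all classes and is not one of coding mRNA alone. The retained-intron EIF3L-212 held 25.8% of EIF3L counts, and EIF3M-212, marked for nonsense-mediated decay, 12.8% of EIF3M counts. Lower in the order, EIF3F-204, also marked for nonsense-mediated decay, held 71.2% of EIF3F counts. By contrast, the protein-coding EIF3C-201 held 82.7% of EIF3C counts. The range of EIF3E over the 6 libraries did not meet that of EIF3M, whereas EIF3M and EIF3L, EIF3L and EIF3I, and EIF3I and EIF3C each overlapped. EIF3A was the lowest eIF3 subunit apart from EIF3CL, at 25.5 TPM, and EIF3E exceeded it by between 19.5-fold and 22.8-fold in every library. The eIF2 genes summed to 414 ± 31.7 TPM in siCT and 424 ± 16.1 TPM in siPDCD4 (SD, n = 3). The eIF2B genes were much lower, at 131 ± 12.7 and 124 ± 7.95 TPM. For eIF3 the sums were 2497 ± 238 and 2521 ± 17.1 TPM, the wide SD in siCT coming from 2223 TPM in replicate 3 against 2649 and 2619 TPM in replicates 1 and 2. EIF1 was at 53.2 TPM, a level that counts only its 7 matched transcripts.

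**Figure D5:**
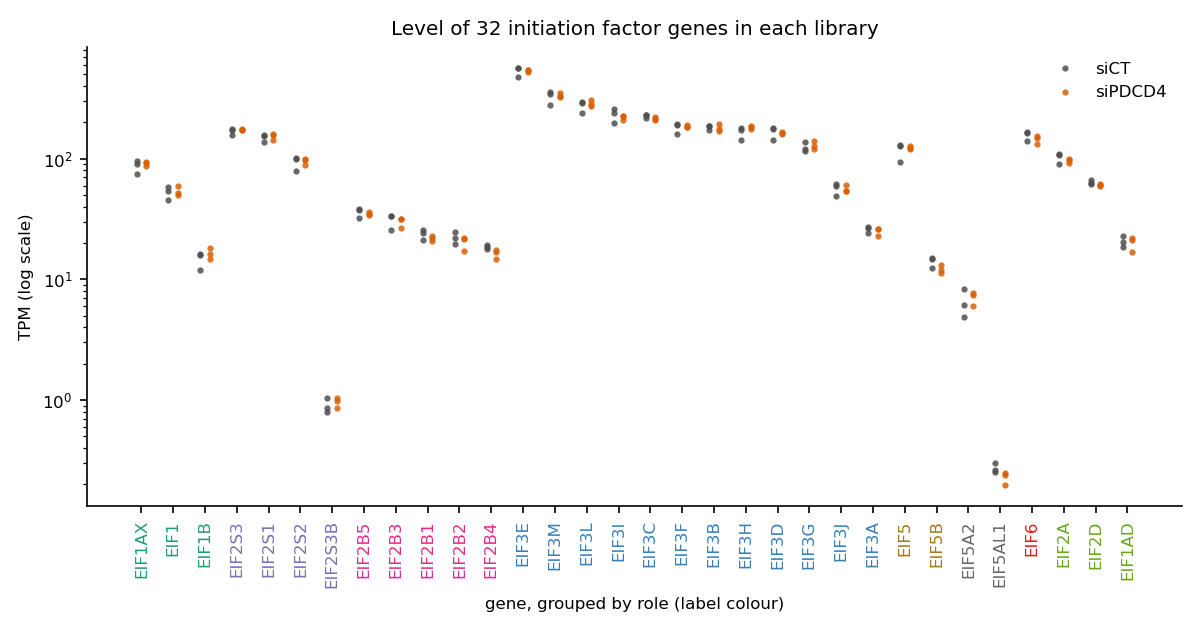
TPM on a log axis (y axis) of 32 initiation factor genes (x axis, grouped by role) in each library, with 1 point per library. EIF3E is highest, near 536 TPM, EIF5AL1 lowest, and within each gene the siCT and siPDCD4 points lie close together compared with the distances between genes (EIF1AY and EIF3CL are not drawn).

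Within eIF3 the make-up of the summed TPM was nearly the same in both groups. EIF3E took 21.4 ± 0.226% in siCT and 21.3 ± 0.446% in siPDCD4 (SD, n = 3), and EIF3M took 13.02 ± 0.386% and 13.4 ± 0.326%. EIF3H, at 6.83, 6.58 and 6.38% in siCT and 7.15, 7.02 and 7.39% in siPDCD4, did not overlap between the groups. Shares in one sum depend on each other, and no test was run on them.

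Single transcripts were examined next, since a change in 1 isoform can be hidden in the sum of a gene. Of 47375 transcripts tested over all genes, 0 passed an FDR of 5% in edgeR (0%), and 3.23% had an unadjusted p under 0.05. Among the 214 transcripts of the initiation factor genes, 4 had such a p, and the smallest adjusted p was 0.316. After EIF3CL-202 came EIF3I-226, a transcript of the class marked for nonsense-mediated decay that held 0.205% of the EIF3I counts. EIF3I-226 stood at 2.17, 0.913 and 1.02 CPM in siCT and at 0 in all siPDCD4 libraries (adjusted p = 0.462). Both EIF3CL-202 and EIF3I-226 were at 0 throughout 1 group and passed the filter on low counts through the other, where they are high. Their small p-values are therefore not taken as support for a change. EIF3C-202, described above, came next, and then EIF3H-210, at 8.48, 7.88 and 7.48 CPM in siCT and 10.4, 10.7 and 10.3 CPM in siPDCD4. For EIF3H-210 the log2 fold change was 0.40 ± 0.14 (adjusted p = 1). In a test of isoform shares within genes, 0.444% of 7877 genes passed an FDR of 5%, and 0 of the 23 initiation factor genes tested did. The smallest Simes p-values among them were 0.107 for EIF3C and 0.157 for EIF3E, both with an adjusted p of 1. EIF3C-201 carried 79.7, 81.2 and 79.3% of EIF3C counts in siCT and 84.1, 87.1 and 84.9% in siPDCD4. EIF3E-224 carried 48.8, 45.9 and 48.8% of EIF3E counts in siCT and 47.3, 49.5 and 50.9% in siPDCD4.

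The factors that work beside these genes were read from the same fit. The eIF4 group held 14 genes, with PABPC1 included beside the EIF4 genes. None of the 14 passed the FDR of 5% in edgeR, and 0 had an unadjusted p under 0.05. Of these genes 6 were above 0 and 8 below, and their median log2 fold change was -0.02. Those with the smallest p were the cap-binding homologue EIF4E2, at -0.10 ± 0.09 (adjusted p = 0.884), and the scaffold EIF4G1, at -0.08 ± 0.08 (adjusted p = 0.9). Of 8 genes for the eIF2 kinases, their regulators and the phosphatase subunits that reverse them, 0 passed, 0 had an unadjusted p under 0.05, 3 were above 0 and 5 below, and the median was -0.09. EIF2AK1, the haem-regulated kinase, stood at -0.21 ± 0.10 (adjusted p = 0.593), and IMPACT, an inhibitor of the activation of the kinase GCN2, at -0.14 ± 0.09 (adjusted p = 0.824). Of 9 tested helpers, such as the ribosome recycling factor ABCE1, at -0.10 ± 0.11, and the eIF5 mimic BZW1, at -0.12 ± 0.10, 0 passed, 0 had an unadjusted p under 0.05, 1 was above 0 and 8 below, and the median was -0.03. The ATF4 response was read from ATF4 itself, at 0.06 ± 0.08, and from genes that it induces in the integrated stress response. Of the 8 tested, with ATF4 among them, 0 passed in edgeR, 7 were above 0 and 1 below. Their median was 0.10, and 1 had an unadjusted p under 0.05. Of all genes tested, 48.7% were above 0. The level was lowest in siCT replicate 3 for ATF4, ASNS, PSAT1 and PHGDH, and in other libraries for DDIT3, TRIB3, SLC7A11 and DDIT4. The part of that siCT library in the count above 0 was not tested. The gene with an unadjusted p under 0.05 was DDIT4, an inhibitor of mTORC1 signalling. It stood at 668, 668 and 646 CPM in siCT and 558, 619 and 520 CPM in siPDCD4, with a log2 fold change of -0.22 ± 0.09 (adjusted p = 0.472). TRIB3, the other of the 2 with the smallest p, was at 0.23 ± 0.12 (adjusted p = 0.689).

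The start of the mRNA was examined last. Many mRNAs of the translation machinery begin with a C followed by a run of pyrimidines, the TOP motif, through which mTORC1 controls their translation. A start of C followed by at least 4 pyrimidines, read on the strand of the gene at the RefSeq start (GRCh38), was found in 7 of the 27 initiation factor genes with an entry (25.9%) and in 4.04% of 27305 genes. The 7 were EIF2S3, EIF2S3B, EIF3D, EIF3F, EIF3M, EIF2A and EIF2D. Their log2 fold changes lay between -0.10 and 0.09, with 4 above 0 and a median of 0.01. The 27305 genes were not limited to protein-coding or expressed genes, as the initiation factor genes are, so the shares come from unlike sets. A match is only a run of letters at an annotated start, and starts in these cells were not measured.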

How the data were processed

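Total RNA libraries (TruSeq Stranded, paired 75-base reads) of 3 siPDCD4 and 3 siCT samples were analysed from the authors' Salmon tables. The estimated counts and the TPM per transcript were deposited by the authors, who used a GRCh38 transcript set; no source used here gives the Salmon version. Salmon divides reads between similar transcripts by estimate, so near-identical genes are uncertain. Each table lists 194142 transcripts, of which 181244 matched GENCODE release 44. The other 12898, with 5.47% to 6.21% of the counts, were not analysed here and may hold further copies of some genes.

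Counts were summed per gene and rounded. Genes were compared by the quasi-likelihood test of edgeR 4.0.16 (R 4.3.3; TMM, robust fit, filterByExpr, transcript-length offset, group as the only term), with the Benjamini-Hochberg correction taken over all 13047 genes. Transcripts were tested without the length offset, and isoform shares with diffSpliceDGE for transcripts holding at least 5% of a gene. The edgeR fits of genes and transcripts described here, diffSpliceDGE, DESeq2 and limma-voom were run on simulated data. The other alternatives were not tested in this way. DESeq2 1.42.0 and limma 3.58.1 served as alternatives. Errors are SE for log2 fold changes and SD for levels and shares. EIF3C and EIF3CL were aligned with biopython 1.88, tables read with pandas 2.3.3 and figures drawn with matplotlib 3.10.9.

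The genes and lists were chosen with earlier results of these data known. Values of each library are given for the gene with the smallest p and the gene with the highest TPM in each role (EIF1AY excepted), and other lists by their 2 smallest p. The same replicate number in both groups was not taken to pair the libraries, and the labels do not say whether it marks a shared day. MCTS1 and SESN2 were not analysed here, and CHAC1 did not pass the filter.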

Additional observations from a re-analysis of the deposited data

How the results depend on the processing

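With all 6 libraries, 0 of the 34 genes passed an FDR of 5% under RLE or upper quartile factors, without the length offset, with DESeq2 or limma-voom, without the low-count filter, with near-identical copies summed (31 genes), or with protein-coding transcripts only (33 genes), and the smallest adjusted p of a member lay between 0.347 and 0.654. Leaving out 1 library at a time gave 0 to 1 genes past it (0 to 1 higher, 0 to 0 lower), the 1 being EIF3CL without siCT replicate 2. The number above 0 then ranged from 5, without siCT replicate 3, to 21, and the median log2 fold change from -0.09 to 0.02. The sign held in every alternative for 15 genes and not for the other 19. Sizes moved as well. With all 6 libraries the alternatives reached 0.24 for EIF3L, 0.17 for EIF1, 0.37 for EIF5A2 and -0.16 for EIF2A. With protein-coding transcripts only, 3 members had an unadjusted p under 0.05 in edgeR, against 1 in the fit described. Over all genes 56 passed in the fit described, against 126 without the length offset, 181 with DESeq2, 127 with limma-voom, 108 without the filter, 39 with protein-coding transcripts only, and 17 to 40 with 1 library left out. Of the transcripts and the isoform shares of the initiation factor genes, 0 passed an FDR of 5% in every alternative run for them.

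With a replicate block 0 members passed, the smallest adjusted p was 0.34, 15 were above 0, the median was -0.04, and 102 genes passed in all. The deviations of libraries with the same number correlated at 0.07, 0.133 and 0.183. The numbers were not taken as pairs, although these values do not settle whether they mark pairs. EIF5AL1 could not be summed with EIF5A, which was not analysed here. Depth limits the genes at about 1 CPM.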
